A study of Arabidopsis halleri with 24 samples.

Results

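The genes described here code for proteins linked to cold and dehydration in Arabidopsis: COR15A, COR15B, COR47, LTI30, TIL, HIS1-3, AT4G30650 and AT1G16850. They are 8 of the 13513 probe sets to which the platform annotation gives 1 gene symbol, out of 22746 probe sets without the array's controls, and each gene has 1 probe set: 263497_at for COR15A, 263495_at for COR15B, 259570_at for COR47, 252102_at for LTI30, 247851_at for TIL, 265817_at for HIS1-3, 253627_at for AT4G30650 and 256114_at for AT1G16850. The genes were chosen from earlier results of these same arrays. TIL and HIS1-3 are known to have been in those results for the leaf difference between high zinc and control in replicates 1 and 2, and COR15A, COR15B, COR47 and LTI30 for the difference between roots and leaves; which values chose AT4G30650 and AT1G16850 is not recorded. Those contrasts are therefore given as descriptions with no test, and tests are kept for the bulk differences and for zinc in roots.

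The study hybridised total RNA of plants labelled Arabidopsis halleri, a zinc-tolerant wild relative of Arabidopsis thaliana, to 24 ATH1 arrays, a platform built for the A. thaliana genome. Plants had been pooled into an accumulating bulk and a non-accumulating bulk, and RNA came from the whole root system or from rosette leaves. Each bulk and organ had 3 control arrays and 3 high-zinc arrays, which makes 8 groups. The high-zinc plants had received 25 µM zinc; the control plants had full mineral medium, whose zinc level the labels do not state. All groups shared a growth room with 10 h of light, a temperature label of 25, a humidity label of 80, weekly watering and developmental stage 1.1. The labels give neither the number of plants in a pool nor whether replicates were separate cultures, so a p-value here measures only the spread between these arrays, which may be technical. The source name of replicate 1 of the non-accumulating control roots is "halleri", where other arrays name a bulk.

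Plants that meet cold or water shortage make several kinds of protective protein. COR15A and COR15B are small hydrophilic proteins of the chloroplast stroma that stabilise membranes during freezing. COR47 and LTI30 are dehydrins, disordered proteins that bind water and membranes as cells dry. TIL is a temperature-induced lipocalin of the plasma membrane, HIS1-3 is the drought-inducible variant of linker histone H1, and AT4G30650 belongs to the RCI2 family of very small hydrophobic membrane proteins induced by cold and salt. AT1G16850 codes for a protein of unknown function. In A. thaliana many such genes are controlled by the CBF transcription factors or by abscisic acid, and several follow the circadian clock.

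The values are MAS5 signals, intensities on a linear scale that had been scaled so that the trimmed mean of every array was 100.01. Correlations between arrays of the same group were 0.887 to 0.951 for root arrays and 0.766 to 0.952 for leaf arrays. The leaf arrays of replicate 3 stood apart from replicates 1 and 2 and ordered high zinc and control the other way for many probe sets, so each leaf result is given by replicate number. The organ labels matched the markers: the summed signal of 8 photosynthetic genes was 14167 to 33978 in leaf arrays and 202 to 632 in root arrays, and that of 5 root genes was 3191 to 6517 in roots and 84.8 to 185 in leaves. In such whole-organ RNA, fewer cells of a type and less RNA per cell cannot be told apart.

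COR15A and COR15B had far higher signals in leaves than in roots, with no overlap between any leaf array and any root array. The COR15A signal lay between 227 and 349 in the 12 leaf arrays, with a median of 274, and between 4.23 and 41.7 in the 12 root arrays, with a median of 28.7. The COR15B signal lay between 363 and 1325 in leaves, with a median of 790, and between 48.9 and 81.6 in roots, with a median of 60.7. Such a full separation with leaves above was seen in 2 of the 8 genes and in 9.17% of the 14403 probe sets kept. On the scale log2(signal + 16), the root minus leaf difference was −2.91 (SE 0.16) for COR15A and −3.28 (SE 0.15) for COR15B. Added to the signal before the logarithm, the constant of 16 pulls in the difference of a gene that is dim in one organ: with a constant of 1 the COR15A difference was −3.70, and with 64 it was −1.94.

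The other genes differed in how far the organs were apart. AT4G30650 had a median signal of 648 in leaves and 88.3 in roots, TIL 677 and 130, and AT1G16850 78.9 and 6.05. Their root minus leaf differences were −2.31 (SE 0.44), −2.22 (SE 0.38) and −2.11 (SE 0.43), and all 3 overlapped between organs. The leaf arrays inside the root range were the high-zinc arrays of replicate 3 and, for AT4G30650, also 1 control array at 121. The dehydrin LTI30 was 0.80 lower in roots (SE 0.26), from a median signal of 91.1 in leaves and 58.1 in roots. HIS1-3 had nearly equal medians, 144 in leaves and 134 in roots, and a difference of −0.44 (SE 0.46). COR47, the other dehydrin, was the 1 gene with the higher mean in roots, by 0.37 (SE 0.12), with medians of 453 in roots and 345 in leaves. Over the 8 genes the median difference was −2.16, and over all probe sets kept it was 0.13.

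**Figure D1:**
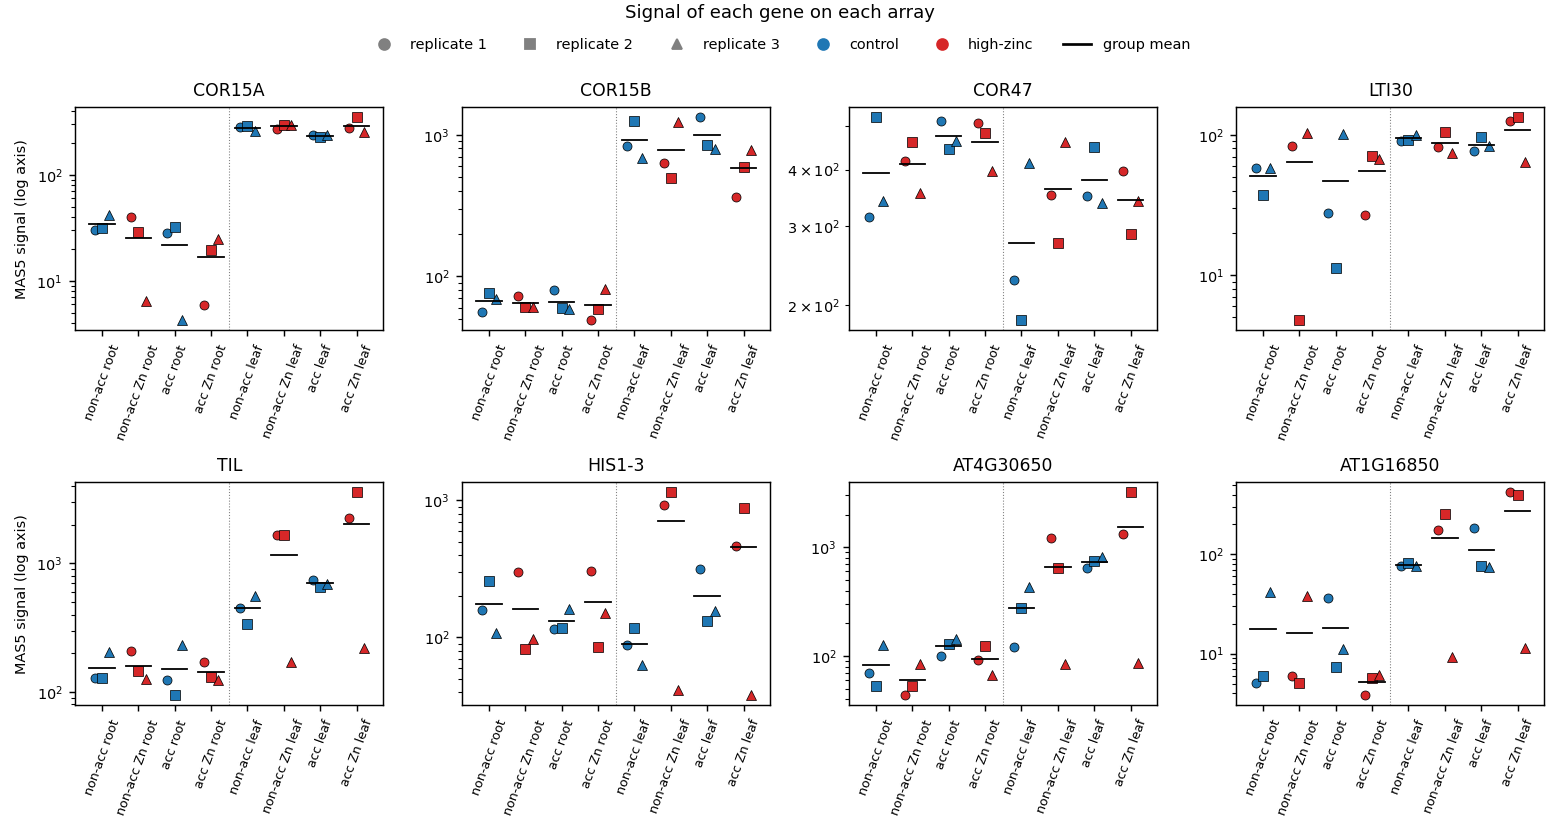
MAS5 signal (log axis) of each gene on each of the 24 arrays, by group; acc and non-acc are the accumulating and non-accumulating bulk, Zn marks high zinc, the symbol gives the replicate number and the bar the group's mean of 3 arrays. COR15A and COR15B lie higher in every leaf array than in every root array, and the red triangles of TIL, HIS1-3, AT4G30650 and AT1G16850 (high-zinc leaves, replicate 3) lie below the other leaf arrays of the gene.

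In leaves, TIL, HIS1-3, AT4G30650 and AT1G16850 were higher in high zinc than in control in replicates 1 and 2 of both bulks, and lower in replicate 3 of both bulks. These 4 genes were grouped after their values had been seen. The plasma membrane lipocalin gene TIL shows the pattern with the least scatter. In the non-accumulating bulk its signals in replicates 1, 2 and 3 were 449, 336 and 559 in control leaves and 1670.1, 1677 and 171 in high-zinc leaves. The accumulating bulk had control signals of 739.9, 659 and 695 and high-zinc signals of 2258, 3579.6 and 218. All 4 high-zinc arrays of replicates 1 and 2 were above every control leaf array, and both high-zinc arrays of replicate 3 were the lowest leaf values of the gene. As a ratio of signals, high zinc to control was 3.72 and 4.98 in replicates 1 and 2 of the non-accumulating bulk and 3.05 and 5.43 in those of the accumulating bulk, against 0.306 and 0.314 in replicate 3.

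HIS1-3, the linker histone gene, had wide gaps in the non-accumulating bulk. Its control leaf signals there were 88.5, 117 and 62.5, and its high-zinc signals 926, 1144 and 41.0. In the accumulating bulk the control signals were 315, 132 and 156, and the high-zinc signals 466, 877 and 37.8. Replicate 1 of the accumulating bulk had the highest control value, 315, and the lowest high-zinc value of replicates 1 and 2, 466. Its ratio was 1.48, where the other ratios of replicates 1 and 2 were 6.63 to 10.5. In replicate 3 the non-accumulating bulk had a ratio of 0.656 and the accumulating bulk 0.242.

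The RCI2-type membrane protein gene AT4G30650 differed between bulks as well as with zinc. Its non-accumulating control signals were 121, 277 and 431, and its high-zinc signals 1229, 650.5 and 83.7. Its accumulating control signals were 645, 747 and 819, and its high-zinc signals 1312, 3197 and 85.7. Within each bulk the high-zinc arrays of replicates 1 and 2 were above the controls, but the 2 bulks overlapped: the non-accumulating high-zinc array at 650.5 lay below the accumulating control arrays of replicates 2 and 3. The ratio of high zinc to control was 2.03 to 10.2 in replicates 1 and 2 and 0.194 and 0.105 in replicate 3.

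AT1G16850, the gene of unknown function, had lower signals on its probe set and the same order. In the non-accumulating bulk the control signals were 76.0, 81.6 and 75.6, and the high-zinc signals 177, 254 and 9.32. In the accumulating bulk the control signals were 183, 76.1 and 75.2, and the high-zinc signals 420.4, 392 and 11.4. Its ratios were 2.30 to 5.16 in replicates 1 and 2, and 0.123 and 0.151 in replicate 3.

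None of the 4 other genes showed this pattern in both bulks. COR15B had the opposite order in replicates 1 and 2: the non-accumulating signals were 833, 1244 and 682 in control leaves and 628, 493 and 1234 in high-zinc leaves. The accumulating signals of COR15B were 1325, 848 and 799 in control leaves and 363, 595 and 780.5 in high-zinc leaves. High zinc was therefore below control in all 4 comparisons of replicates 1 and 2, while in replicate 3 the non-accumulating bulk had a ratio of 1.81 and the accumulating bulk 0.977. COR15A, its close relative, was the steadiest gene of the list in leaves, with ratios from 0.955 to 1.54 over all 6 comparisons. COR47 had ratios from 0.642 to 1.55 and LTI30 from 0.737 to 1.66, with arrays of both treatments mixed when the bulks were pooled. In the accumulating bulk alone LTI30 had the order of the 4 genes above, with ratios of 1.66, 1.38 and 0.767 in replicates 1, 2 and 3. Its non-accumulating ratios were 0.908, 1.15 and 0.737. The high-zinc LTI30 signals of replicate 3, 74.1 and 64.1, were nonetheless the lowest of its 12 leaf values, next to 76.2 in an accumulating control.

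The same differences averaged over arrays show how much replicate 3 set them. With replicates 1 and 2 alone, the high zinc minus control difference on the log2(signal + 16) scale was 2.36 (SE 0.29) for HIS1-3, 2.03 (SE 0.18) for TIL, 1.86 (SE 0.36) for AT4G30650 and 1.45 (SE 0.24) for AT1G16850, from 8 arrays. It was −1.01 (SE 0.23) for COR15B, 0.27 (SE 0.14) for LTI30, 0.18 (SE 0.12) for COR15A and 0.17 (SE 0.16) for COR47. With all 12 arrays the differences were 1.21 (SE 0.81) for HIS1-3, 0.82 (SE 0.69) for TIL, 0.37 for both AT4G30650 (SE 0.81) and AT1G16850 (SE 0.73), and −0.54 (SE 0.27) for COR15B. The median of the 8 genes was 0.86 without replicate 3 and 0.27 with it, and that of all probe sets kept was 0.01 and 0.00.

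**Figure D2:**
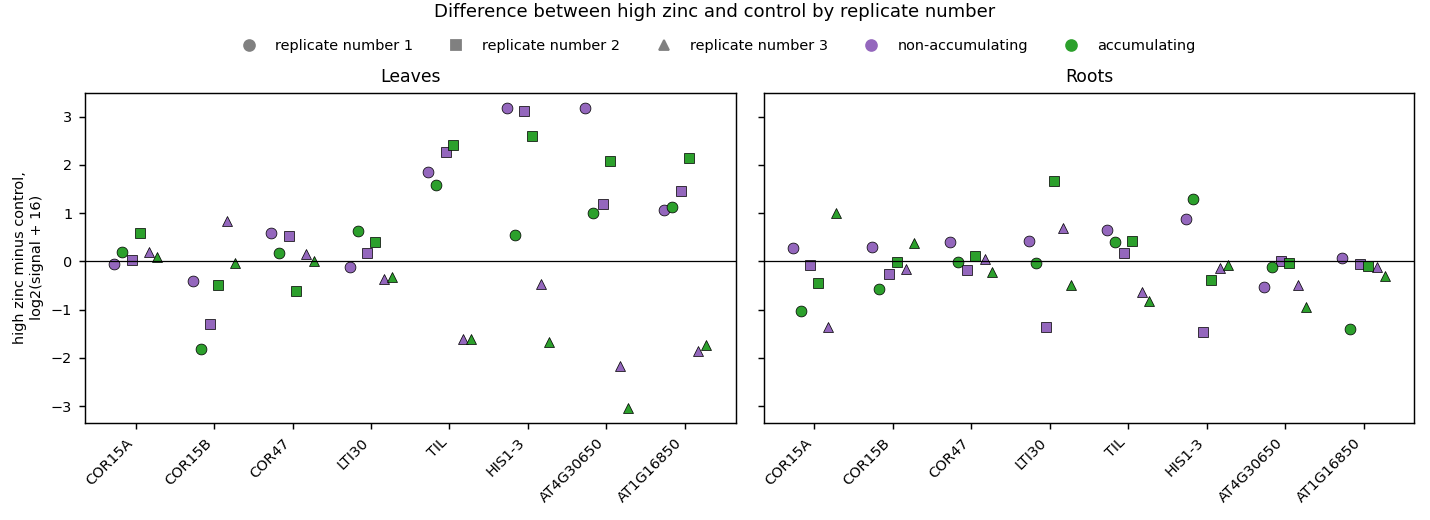
High zinc minus control on the log2(signal + 16) scale for each gene, bulk (colour) and replicate number (symbol), in leaves (left) and roots (right); each point is 1 array minus 1 array of the same number, which is a description and not a pairing of samples. In leaves the triangles of replicate 3 lie below 0 for TIL, HIS1-3, AT4G30650 and AT1G16850, and the circles and squares of replicates 1 and 2 above it.

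Counts of arrays that did not overlap depended on whether the bulks were pooled. Over both bulks, every high-zinc array of replicates 1 and 2 was above every control array of those replicates in 2 of the 8 genes, TIL and HIS1-3, against 6.42% of the 12688 leaf probe sets kept. Compared within each bulk, a rule chosen after the values were seen, this held for 4 of the 8, against 10.1% of probe sets, and the reverse order held for COR15B alone, against 11.2%. In replicate 3 both high-zinc arrays were below both control arrays in 5 of the 8 genes (LTI30 and the 4 genes above), against 24.3% of probe sets, and the same 5 held within each bulk, against 32.5%. Both orders together, above in replicates 1 and 2 and below in 3, held over both bulks for TIL and HIS1-3, against 2.33%, and within each bulk for 4 of the 8, against 4.2%. The high-zinc arrays of replicate 3 were below those of replicates 1 and 2 in both bulks in 5 of the 8 genes, against 22.6%. Because the leaf contrast put members on the list, nothing about the list is read from these shares.

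Other measures moved with the same leaf arrays. The clock gene GI had signals of 250.1 to 515 in high-zinc leaves of replicates 1 and 2 and 459 to 473 in control leaves of replicate 3. Its signals were 114 to 170.2 in control leaves of replicates 1 and 2 and 182 to 217 in high-zinc leaves of replicate 3. COR27, a cold-regulated gene that acts on the clock, had the same order: 129 to 175 in high-zinc leaves of replicates 1 and 2, 47.4 to 81.4 in control leaves of replicate 3, and 1.45 to 5.38 in the other leaf arrays. In TIL, HIS1-3, AT4G30650 and AT1G16850 the high-zinc leaves of replicates 1 and 2 were also high, but the control leaves of replicate 3 did not stand far above those of replicates 1 and 2 as they did for GI and COR27. Those signals of replicate 3 were 559 and 695 for TIL, beside 336 to 739.9 in replicates 1 and 2, and 75.6 and 75.2 for AT1G16850, beside 76.0 to 183. They were 62.5 and 156 for HIS1-3, beside 88.5 to 315, and 431 and 819 for AT4G30650, beside 121 to 747. These ranges pool the bulks. Within a bulk, the replicate 3 control was the highest control for AT4G30650 in both bulks and for TIL in the non-accumulating bulk. It was the lowest for AT1G16850 in both bulks and for HIS1-3 in the non-accumulating bulk, and lay between the others elsewhere.

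The summed signal of the 8 photosynthetic markers was lower in the 4 high-zinc leaf arrays of replicates 1 and 2, at 14167 to 19001, than in the other 8 leaf arrays, at 23116 to 33978. Of these markers, 5 of the 8 were lower with zinc within each bulk in replicates 1 and 2, against 11.2% of the leaf probe sets kept. The root marker sum was low in all leaf arrays and overlapped between the groups. The array's GAPDH controls compare the 3′ with the 5′ end of a transcript as a measure of RNA integrity, and their log2 ratio was −0.34 to 0.24 in high-zinc leaves and −0.31 to 0.39 in control leaves. The part of the clock genes or of the photosynthetic genes in the leaf pattern was not tested.

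Whether zinc accumulation went with these genes is the comparison of the bulks. In control leaves, 3 of the 8 genes were higher in every accumulating array than in every non-accumulating array: TIL (659 to 739.9 against 336 to 559), HIS1-3 (132 to 315 against 62.5 to 117) and AT4G30650 (645 to 819 against 121 to 431). This order held for 3.18% of the leaf probe sets kept, and the rule was chosen after the values had been seen. The reverse order held for COR15A alone (227 to 239.9 against 258 to 290.1), against 5.01% of probe sets. In high-zinc leaves the bulks overlapped for all 8 genes when replicate 3 was included. Within replicates 1 and 2, the accumulating high-zinc arrays were above the non-accumulating ones for LTI30, TIL, AT4G30650 and AT1G16850. The order was the reverse for HIS1-3, and COR15A, COR15B and COR47 overlapped. This look at replicates 1 and 2 was also chosen after the values had been seen, and no share of all probe sets was taken for it. It sets only 2 arrays against 2, so nothing about the genes as a list is read from it.

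The test over all leaf arrays called none of them. Averaged over zinc, the accumulating minus non-accumulating difference in leaves was 1.16 for AT4G30650 (SE 0.79, 95% interval −0.57 to 2.88), 0.63 for TIL (SE 0.67), 0.49 for AT1G16850 (SE 0.71) and 0.25 for HIS1-3 (SE 0.79). The remaining 4 genes lay between −0.14 and 0.22, and by limma all 8 had an adjusted p of 0.999. In this comparison 0% of the 12688 probe sets passed the adjusted threshold of 0.05, and 546 had an unadjusted p under 0.05, none of them of these genes. The leaf median over the 8 genes was 0.24. Single arrays moved the 2 largest differences by more than 1.5 times. Without replicate 3 of non-accumulating high zinc TIL was at 0.10 and AT4G30650 at 0.62, and without replicate 3 of accumulating high zinc they were at 1.23 and 1.88. Without replicate 2 of accumulating high zinc TIL was at 0.25 and AT4G30650 at 0.64, and without replicate 1 of that group TIL was at 0.41.

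Leaving out the leaf arrays of replicate 3 narrowed the errors without bringing a gene past the threshold. The bulk difference was then 1.50 for AT4G30650 (SE 0.33, limma adjusted p = 0.164), 0.79 for TIL (SE 0.18, limma adjusted p = 0.174), 0.70 for AT1G16850 (SE 0.23, limma adjusted p = 0.321) and 0.51 for COR47 (SE 0.18, limma adjusted p = 0.347). HIS1-3, which had been separated in control leaves, had a difference of 0.12 (SE 0.28, limma adjusted p = 0.901). Among the high-zinc arrays of replicates 1 and 2 its signals were higher in the non-accumulating bulk.

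COR15B, COR47, TIL, HIS1-3, AT4G30650 and AT1G16850 varied within a narrower band in roots than in leaves on the tested scale. LTI30 and COR15A varied more in roots. Their standard deviations were 0.81 in roots and 0.26 in leaves for LTI30, and 0.54 and 0.16 for COR15A. Of the 8, COR15A, LTI30 and AT1G16850 had no group mean above the median root signal of 56.3 on the tested scale and were not tested. AT1G16850 had root signals of 36.0, 37.7 and 41.9 on 3 arrays and of 3.81 to 11.2 on the other 9. LTI30 ran from 4.77 to 104 in roots without following group, and the 3 replicates of non-accumulating high zinc alone spanned that range. Of the 5 genes tested, AT4G30650 again had the largest bulk difference. Its root signals were 70.4, 52.5 and 127 in non-accumulating control, 43.6, 52.6 and 85.4 in non-accumulating high zinc, 100.7, 129 and 144 in accumulating control and 91.2, 125 and 67.1 in accumulating high zinc. The accumulating values lay higher on average, with overlap at both zinc levels.

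The AT4G30650 bulk difference in roots was 0.55 (SE 0.20, 95% interval 0.11 to 0.98), with an unadjusted p of 0.018 and an adjusted p of 0.663 by limma, and did not pass. Without the array whose source name is "halleri" it was 0.51 (limma adjusted p = 0.797). COR47 had a bulk difference of 0.23 (SE 0.14), and TIL, HIS1-3 and COR15B lay between −0.11 and −0.04. Of the 12489 root probe sets, 0% passed the adjusted threshold, and 862 had an unadjusted p under 0.05, among them 1 of the 5 genes tested.

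In roots none of the 5 genes tested differed between high zinc and control by more than the test could separate from the spread of the 12 arrays. The zinc differences were 0.03 for TIL (SE 0.20, 95% interval −0.41 to 0.46), 0.02 for HIS1-3 (SE 0.33, interval −0.69 to 0.72), 0.02 for COR47 (SE 0.14, interval −0.27 to 0.32), −0.05 for COR15B (SE 0.13, interval −0.35 to 0.24) and −0.36 for AT4G30650 (SE 0.20, interval −0.79 to 0.08). The limma adjusted p ran from 0.761 to 0.994, 0% of probe sets passed, and 854 had an unadjusted p under 0.05. Roots and leaves were not tested against each other for zinc. The leaf differences of replicates 1 and 2 put TIL and HIS1-3 on the list, so no organ difference is read from these intervals. HIS1-3 had root signals of 301 and 305 in the high-zinc arrays of replicate 1, next to 82.7 and 85.7 in those of replicate 2.

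**Figure D3:**
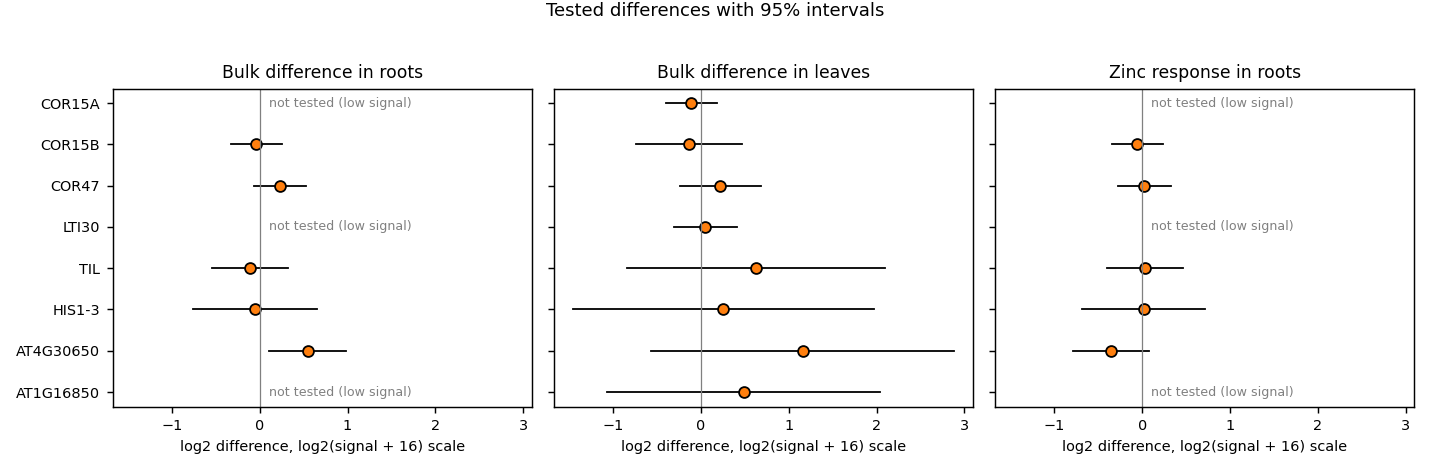
Differences on the log2(signal + 16) scale (points) with 95% intervals (lines) for the bulk difference in roots, the bulk difference in leaves (both accumulating minus non-accumulating) and the zinc response in roots (high zinc minus control). AT4G30650 has the largest bulk difference in both organs, 0.55 in roots and 1.16 in leaves, the second with an interval that includes 0; no gene passed the adjusted threshold.

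The interactions added no call. The zinc response in roots differed between the bulks by −0.13 to 0.52 for the 5 genes tested (SE 0.27 to 0.65, limma adjusted p = 0.998), with 0% of the 12489 probe sets past the threshold and 470 with an unadjusted p under 0.05. The bulk difference in roots minus that in leaves was −0.75 to 0.10 for the 8 genes (SE 0.25 to 0.91, limma adjusted p = 0.999), with 0% of the 14403 probe sets past the threshold and 372 with an unadjusted p under 0.05.

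Over the 12 leaf arrays TIL, HIS1-3, AT4G30650 and AT1G16850 varied together. Pearson r of the log2 signals was 0.81 to 0.94 over their 6 pairs, with a median of 0.90, and TIL and AT1G16850 had the highest value. LTI30 followed them, with r of 0.57 to 0.78. COR15B ran against them, at −0.72 to −0.53, and COR47 was close to 0, at −0.19 to 0.08. In roots the same 6 pairs had r of −0.42 to 0.38, with a median of 0.07. The points of a correlation share their arrays and the replicate 3 pattern, and these values are a description of 12 arrays. TIL, HIS1-3, AT4G30650 and AT1G16850 were grouped for their order on these same leaf arrays, so a high r among them follows from that choice. In roots AT1G16850 was too dim to be tested, which also limits its r there.

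**Figure D4:**
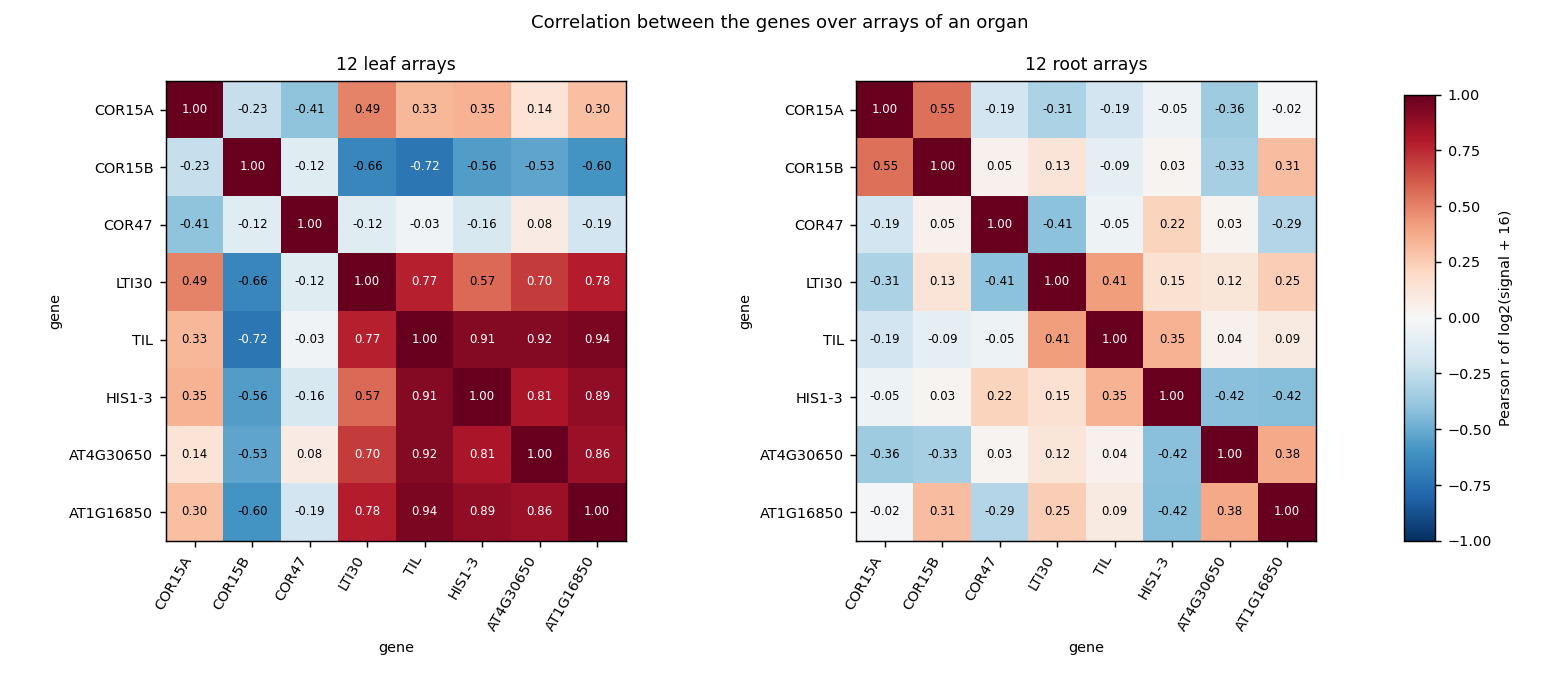
Pearson r between the log2(signal + 16) values of each pair of genes over the 12 leaf arrays (left) and the 12 root arrays (right), from −1 (blue) to 1 (red). In leaves the block of TIL, HIS1-3, AT4G30650 and AT1G16850, which were grouped for their order on these leaf arrays, has r of 0.81 to 0.94. COR15B is negative against each of them there. In roots the same block has r of −0.42 to 0.38.

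The probe sets most like the mean profile of the 8 genes were named by rank alone. That mean was not scaled by gene, so the genes that varied most weighed most. In leaves these were HIS1-3, AT4G30650, AT1G16850 and TIL, with standard deviations of 1.32 to 1.60, against 0.16 to 0.55 for the others. COR15B ran against the mean of the other genes there (r = −0.64). Over the 12 leaf arrays, among 6918 other probe sets with 1 symbol, these were AT4G12590 (r = 0.97), AT3G17250 (0.96), AT1G04990 (0.95), AT1G68070 (0.94) and AT1G05575 (0.93). Over the 12 root arrays, among 6787, they were MCCB (0.93), AT3G06980 (0.90), TET2 (0.89), AT5G25475 (0.88) and AT3G15900 (0.87). In roots the 8 genes had no common profile, as each had an r of only −0.32 to 0.39 with the mean of the others. LTI30, HIS1-3, AT1G16850 and COR15A varied most there, and of these LTI30, AT1G16850 and COR15A were too dim to be tested. The root list may therefore follow noise in dim signals. No gene was in both lists.

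Other genes of the cold and dehydration pathways were taken from lists of 112 genes, of which the annotation gave 14 as the only symbol of a probe set. Regulators in the abscisic acid list had no such probe set, so 2 genes of the CBF list, 5 dehydrin, LEA and COR genes, 3 RCI2 family genes, 2 dehydration genes and 2 linker histone genes could be described. None passed the threshold in any of the 5 tests, where 8 genes in roots and 10 in leaves and in the organ comparison reached the signal filter.

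In leaves, 2 of the 14 were higher with zinc within each bulk in replicates 1 and 2 and lower in replicate 3: COR27, described above, and AT4G30660, an RCI2 family gene whose locus number is next to that of AT4G30650. This order held for 4.2% of the leaf probe sets kept. The AT4G30660 signals were 313, 474 and 866 in non-accumulating control leaves, 1307, 711 and 348 in non-accumulating high zinc, 776, 589 and 515 in accumulating control and 936, 1412 and 363 in accumulating high zinc. Its difference in replicates 1 and 2 was 1.02 (SE 0.25). Another 2 of the 14, the RCI2 family genes AT2G38905 (−0.76, SE 0.21) and AT2G24040 (−0.71, SE 0.24), were lower with zinc within each bulk in those replicates. That lower order held for 11.2% of the leaf probe sets kept, so the count of 2 is not read as a result about the 14. The 3 RCI2 family genes beside AT4G30650 thus did not share 1 direction.

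Next in size among the 14 were CHL, the chloroplast lipocalin gene and a relative of TIL, with a difference of −0.70 (SE 0.54), and STZ, a zinc finger repressor induced by cold and drought, with one of 0.68 (SE 0.37). The arrays of both overlapped. STZ was far lower in replicate 3 at both zinc levels. Its control leaf signals were 95.6 to 153 in replicate 3 and 720 to 4055 in replicates 1 and 2. In high-zinc leaves they were 134 to 377 in replicate 3 and 1636 to 2928 in replicates 1 and 2. The linker histone genes beside HIS1-3, named here as its relatives and not for their size, had differences of 0.13 (SE 0.22) for AT1G06760 and −0.57 (SE 0.31) for AT2G30620. The other 6 genes, 1 of them with 2 probe sets, lay between −0.09 and 0.44. Among them LEA, LEA4-5, LEA18 and AT3G15670 had median leaf signals of only 1.42 to 4.79. At such signals the constant of 16 holds a difference near 0, so these values do not show whether those genes changed.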

How the data were processed

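The authors deposited 1 table of MAS5 signal intensities, per the submitters' processing notes, for 24 arrays; for the MAS5 version and the scaling target, the sources used here give nothing, and detection calls were not used. No values were rescaled. After removing 64 of 22810 probe sets as array controls, log2(signal + 16) was fitted with limma 3.58.1 in R 4.3.3 (group means, empirical Bayes with trend), with Benjamini-Hochberg adjustment over all probe sets kept and a threshold of 0.05. The filter kept probe sets with at least 1 group mean, on that scale, above the fit's median signal: 56.3 in roots, 53.3 in leaves and 54.8 over both, which kept 12489, 12688 and 14403. The scale of this filter was settled after results with linear means had been seen. The fits were checked on simulated data. Probe sets were named from the platform's gene table, which gives several symbols to 503 and none to 8794. No array had values identical to another's. Precision is limited by having 3 arrays a group.

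The members, the pathway lists and the rules for naming other genes (every member, the largest differences among pathway genes, and the 5 probe sets most like the members' mean profile in each organ) were chosen with earlier results of these data known. Same-numbered arrays tended to deviate together, though not in every pair: correlations of deviations were −0.18 to 0.40 for roots and −0.02 to 0.72 for leaves. Their medians were 0.12 in roots and 0.28 in leaves, and −0.08 and −0.17 for arrays of different numbers. Deviations from a group's mean cancel within the group, so the values for different numbers are not an independent baseline. The main fits did not pair arrays by number, and a replicate block was run as an alternative. The alternatives were a constant of 1 or 64, no filter or a filter on linear means, quantile normalization, median centring, a replicate block, control arrays alone, leaf replicate 3 left out, and each array left out in turn. Figures were drawn with matplotlib 3.10.9.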

Additional observations from a re-analysis of the deposited data

How the results depend on the processing

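None of the 8 genes passed the threshold under any of 714 alternatives of a tested member value. For the member differences given as descriptions, a changed constant or normalization moved 7 values by at least the pooled standard deviation of the arrays compared. It left 121 values within that distance. The bulk difference in leaves called 1 probe set with no filter, 1 with the replicate block and 1 without leaf replicate 3, and the organ by bulk interaction 1 with no filter and 1 without leaf replicate 3; none of these was a member. Other alternatives kept 0 calls, filtering on linear means included. Leaving out each array in turn gave 0 to 1 calls for the bulk difference in roots and 0 to 6 for zinc in roots, above 0 only without replicate 3 of non-accumulating high-zinc roots or replicate 2 of accumulating control roots, and 0 for the other tests. The replicate block changed no other call. Signs that turned belonged to differences that were not called: COR15B in the root bulk difference (0.0024 with quantile normalization, 0.0052 with median centring), COR47 in the organ by bulk interaction (−0.00072 with median centring, −0.28 without leaf replicate 3), and in control leaves alone the bulk difference of COR15B (0.11) and LTI30 (−0.12). With each array left out, 65 further values turned sign. In the root bulk difference COR15B ran from −0.12 to 0.028, TIL from −0.28 to 0.013 and HIS1-3 from −0.27 to 0.21. For zinc in roots COR15B ran from −0.14 to 0.011, COR47 from −0.044 to 0.13, TIL from −0.10 to 0.20 and HIS1-3 from −0.25 to 0.21. In the root interaction COR15B ran from −0.19 to 0.11, COR47 from −0.35 to 0.0046, TIL from −0.31 to 0.27 and AT4G30650 from −0.32 to 0.21. In the leaf bulk difference COR15B ran from −0.27 to 0.052, LTI30 from −0.031 to 0.19, HIS1-3 from −0.44 to 0.86 and AT1G16850 from −0.043 to 1.14, while TIL (0.10 to 1.23), AT4G30650 (0.62 to 1.88), COR47 (0.11 to 0.38) and COR15A (−0.17 to −0.061) kept their sign. In roots AT4G30650 also kept its sign, with a bulk difference of 0.43 to 0.69 and a zinc difference of −0.47 to −0.21, and so did the bulk difference of COR47 (0.16 to 0.34). In the organ by bulk interaction COR15B ran from −0.090 to 0.23, COR47 from −0.15 to 0.12, LTI30 from −0.57 to 0.065 and HIS1-3 from −0.91 to 0.39. The cause was not tested. Dim root signals limit what can be said of COR15A, LTI30 and AT1G16850 there, since detection calls were not analysed here.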
